A study of Mus musculus with 10 samples.

Results

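The genes described here are 10 members of the BCL2 family, which sets whether a cell under stress lives or dies. They were chosen by name, as the rows of the deposited gene table that carry the symbols Bcl2, Bcl2l1, Mcl1, Bax, Bak1, Bcl2l11, Bbc3, Bid, Bad and Bnip3. All 10 were found among the 15078 genes of the table, and all 10 passed the filter for testing, a mean normalized count of at least 10 over the libraries. The study sequenced RNA of sorted mouse skeletal stem and stromal cells in 10 libraries of 3 groups, to ask how stromal cells that refill the marrow of a transplanted femur relate to the stem cells of periosteum and marrow. Each value is a normalized count, a gene's reads scaled by the depth of its library. BM-MSC (n = 3, libraries 1, 2+4 and 3) are mesenchymal stem cells from the bone marrow of untreated Wild-type mice at steady state. P-SSC (n = 3, libraries 1, 2+5 and 4) are skeletal stem cells from the periosteum (the sheath of living tissue on the outside of a bone), also of untreated Wild-type mice. Both were sorted as CD45-Ter119-CD31-CD51+CD200+, and the libraries 2+4 and 2+5 each join the RNA of a pair of mice. Graft BM-MSC (n = 4, libraries 1 to 4) are CD51+CD200+Tomato+ cells from the marrow of femurs that had been under the skin of a recipient mouse for 5 months. The femur donors carried Postn Cre-ER and a tdTomato reporter (genotype label POSTN-CRE), and tamoxifen was given to the recipients from the second day after surgery. The Cre therefore acts in cells that use Postn at that time, and Tomato stays on in their descendants. Other cells of the grafted marrow can come from the recipient. The labels give no ages, and age may also differ, as graft cells were taken 5 months after surgery. The groups differ in genotype and treatment as well as in tissue. The 6 steady-state libraries are re-analysed from another series, so the origin of the libraries and the group cannot be told apart between the graft and the rest.

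BCL2 family proteins meet at the outer membrane of the mitochondrion. The pro-survival members BCL-2 (Bcl2), BCL-XL (Bcl2l1) and MCL-1 (Mcl1) hold the effectors BAX (Bax) and BAK (Bak1) in check, and once free of them BAX and BAK open pores that release cytochrome c and start the caspases. The BH3-only proteins BIM (Bcl2l11), PUMA (Bbc3), BID (Bid) and BAD (Bad) carry stress signals: BIM and PUMA answer loss of growth factors and DNA damage, BID is cut by caspase-8 below death receptors, and BAD is held inactive by AKT while growth factors are present. BNIP3 (Bnip3) is known mainly as a mitophagy receptor that is induced in low oxygen. Marrow stromal cells and periosteal cells of a transplanted bone lose their blood supply for a time, which is the setting in which this pathway is of interest. Much of its control lies in protein stability, cleavage and phosphorylation, which RNA levels do not show.

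The BH3 core is the short helix through which these proteins bind each other, and its coding sequence is shown because it is the feature that makes the family 1 family. Each run below holds 30 bases, 5′ to 3′, with the core codons in capitals, read from GENCODE M21 coding transcripts on GRCm38. The codons searched for were leucine, any 3 residues, then glycine, alanine or serine, then aspartate, followed by aspartate, glutamate or glycine in the next position outside the capitals.
Bcl2: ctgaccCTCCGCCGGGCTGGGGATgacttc
Bcl2l1: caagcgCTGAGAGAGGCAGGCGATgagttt
Mcl1: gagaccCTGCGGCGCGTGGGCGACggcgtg
Bax: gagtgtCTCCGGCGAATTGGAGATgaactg
Bak1: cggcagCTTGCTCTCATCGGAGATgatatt
Bcl2l11: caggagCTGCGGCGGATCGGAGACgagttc
Bbc3: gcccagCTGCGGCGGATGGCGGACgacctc
Bid: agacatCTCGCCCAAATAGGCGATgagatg
Bad: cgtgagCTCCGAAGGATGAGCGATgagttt
The run lies inside a single coding exon in each gene, at chr1:106712578-106712607 on the minus strand for Bcl2, chr2:152829700-152829729 on the minus strand for Bcl2l1 and chr3:95659430-95659459 on the plus strand for Mcl1. Bax has it at chr7:45466000-45466029 and Bak1 at chr17:27022534-27022563, both on the minus strand. Among the BH3-only genes the positions are chr2:128147144-128147173 (Bcl2l11), chr7:16313767-16313796 (Bbc3) and chr19:6950786-6950815 (Bad) on the plus strand, and chr6:120897292-120897321 (Bid) on the minus strand. The pattern occurred once in the coding sequence of these 9 genes and nowhere in that of Bnip3, and 8.66% of 21755 genes with a coding transcript hold it. It was written from the known BH3 consensus, so a match is a description of the members and not a result.

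A few properties of the libraries bear on the values that follow. The libraries held 15415421 to 25223295 reads, and 22.6 to 38.3% of the genes were at 0 in a graft library against 11.5 to 19% in a steady-state library. Libraries also differed in GC-rich genes. The measure used is the median, over 42 genes with more than 65% GC, of the log2 deviation from the mean of all libraries, less that over 6493 genes with 50 to 60% GC. It was between 1.69 and 2.88 in the graft libraries and between -2.16 and -1.59 in the steady-state libraries except P-SSC 4, which was at 1.64. For graft BM-MSC against BM-MSC this property and the group cannot be told apart, and P-SSC 4 is the only steady-state library on the graft side. Marker sums fitted the labelled tissues: the marrow stroma genes Cxcl12, Lepr and Kitl summed to 587084 to 777919.5 in graft BM-MSC, 772385 to 1047454 in BM-MSC and 4502 to 8840.4 in P-SSC. Blood cell markers were present despite the sort: 6 neutrophil genes summed to 5098 to 98465 in graft BM-MSC, 26752 to 75117 in BM-MSC and 5.82 to 94.5 in P-SSC, and 5 red cell genes to 1482 to 27479, 58582 to 204631 and 202 to 1407. Of the 4 endothelial genes in the table, Tek alone was high in P-SSC, at 3254 to 6869 against 0 to 1.04 elsewhere. Cdh5 was at 2.08 to 58.6 in P-SSC and 0 elsewhere, Emcn was at 0 in P-SSC and 24.3 to 81.5 in BM-MSC, and Vwf reached 22.3 in P-SSC and 150.4 in BM-MSC. Itgav and Cd200, which encode the sorted antigens, summed to 1781 to 3962 in all libraries.

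The clearest difference among the 10 genes was in Mcl1, whose mean count was 16.3-fold higher in graft BM-MSC (1562) than in BM-MSC (95.6). On the log2 scale of the test Mcl1 differed by 5.14, or by 3.47 without BM-MSC 2+4. It was the 1 member of 10 past the threshold in that comparison (limma, adjusted p under 0.05), where 7.67% of all 13644 genes tested were called. No member was called in graft BM-MSC against P-SSC, where 18.1% of all genes were, and none in P-SSC against BM-MSC, where 9.15% were. At an unadjusted p under 0.05, 2 members passed in each comparison: Bax and Bad for graft BM-MSC against P-SSC, Mcl1 and Bad for graft BM-MSC against BM-MSC, and Mcl1 and Bid for P-SSC against BM-MSC. Of all genes, 32.8%, 25.5% and 18.7% passed this looser limit in these comparisons. edgeR called 0 members in each of the 3 comparisons, and DESeq2 called 2, 1 and 2. Of all 13644 genes, edgeR called 1531, 316 and 619 in the same order. DESeq2 called 1200 higher and 1708 lower in the first comparison, 918 and 1029 in the second, and 727 and 788 in the third. The comparisons share libraries, so each group's values enter a pair of them.

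**Figure D1:**
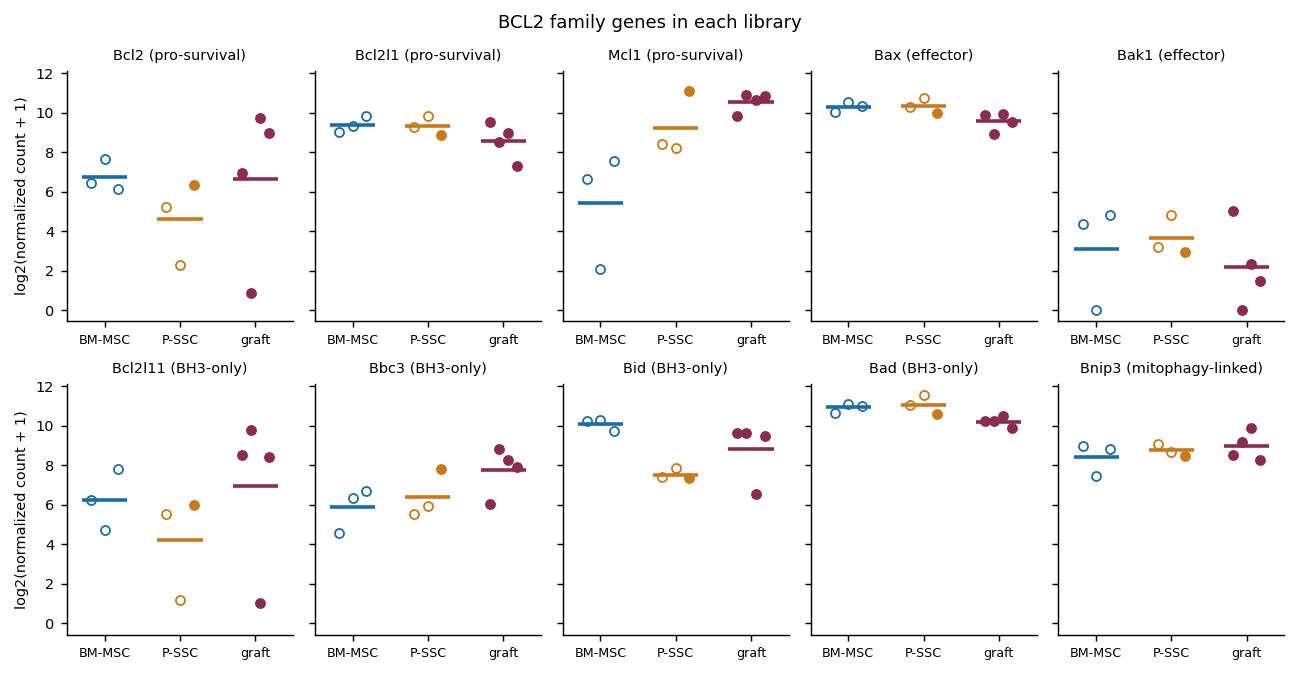
Each point is a library, by group, with its value as log2(normalized count + 1) on the vertical axis and 1 panel a gene; horizontal lines are group means, and filled points are libraries with a high level of GC-rich genes (the 4 graft libraries and P-SSC 4). Mcl1 in the 4 graft libraries (919 to 1918) and in P-SSC 4 (2172) stood above all BM-MSC libraries (3.16 to 185), Bid in P-SSC (161 to 232) below all BM-MSC libraries (854 to 1255), and Bcl2 and Bcl2l11 spread widely within the graft group.

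Levels compared between genes were taken per kilobase of exon. Averaged over the 10 libraries, Bax (694 normalized counts per kb) and Bad (681) were the most abundant members. Mcl1 (273), Bnip3 (205), Bid (178) and Bcl2l1 (126) followed, then Bbc3 (75.3), Bcl2l11 (25.4), Bcl2 (21.1) and Bak1 (5.24). Bax and Bad were at the top of this order in all 3 groups, at 811 and 771 in BM-MSC, 834 and 869 in P-SSC and 501 and 472 in graft BM-MSC, and did not differ from each other beyond the spread between libraries. Mcl1 changed its place most, from 28.0 per kb in BM-MSC to 274 in P-SSC and 457 in graft BM-MSC. Of the effectors, Bax was the one with substantial RNA in every library, and Bak1 was near the limit of detection.

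Mcl1 encodes the short-lived pro-survival protein that many cells need to be made afresh under stress. Its normalized count was 98.2, 3.16 and 185 in BM-MSC 1, 2+4 and 3. It was 339.7, 298 and 2172 in P-SSC 1, 2+5 and 4, and 919, 1918, 1596 and 1814 in graft BM-MSC 1 to 4. Of all genes, 25.0% did not overlap between graft BM-MSC and BM-MSC and 30.9% between P-SSC and BM-MSC. For Mcl1 the 4 graft libraries and all P-SSC libraries lay above every BM-MSC library, and BM-MSC 2+4 held only 3 reads of the gene. The log2 difference was 5.14 for graft BM-MSC against BM-MSC (SE 1.19, adjusted p = 0.0282). Leaving out 1 library at a time moved it between 3.47, without BM-MSC 2+4, and 6.21, without BM-MSC 3. For P-SSC against BM-MSC it was 3.83 (SE 1.27, adjusted p = 0.102), or 2.15 and 4.90 without the same libraries, and for graft BM-MSC against P-SSC 1.31 (SE 1.19, adjusted p = 0.477), where the groups overlapped. These are differences in the RNA of a sorted sample, in which fewer cells of a type and less RNA per cell cannot be told apart. The order of Mcl1 followed the GC property: the 5 libraries high in GC-rich genes held 919 to 2172 and the 5 low ones 3.16 to 339.7. Its coding sequence has 64.7% GC and its exons together 51.2%. With this property as a covariate, which leaves P-SSC 4 to set the contrast, the difference of graft BM-MSC from BM-MSC was 2.38 (adjusted p = 0.866), and after a correction of each library for gene GC content it was 5.96 and called. The call was lost without BM-MSC 1 (adjusted p = 0.0545) or without graft BM-MSC 2, 3 or 4 (0.0537, 0.0574 and 0.0584), and over the 20 alternatives tried the adjusted p ran from 9.18e-04 to 0.866, with 11 past the threshold. Within the 5 low libraries alone, P-SSC and BM-MSC differed by 2.91 (adjusted p = 0.362).

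**Figure D2:**
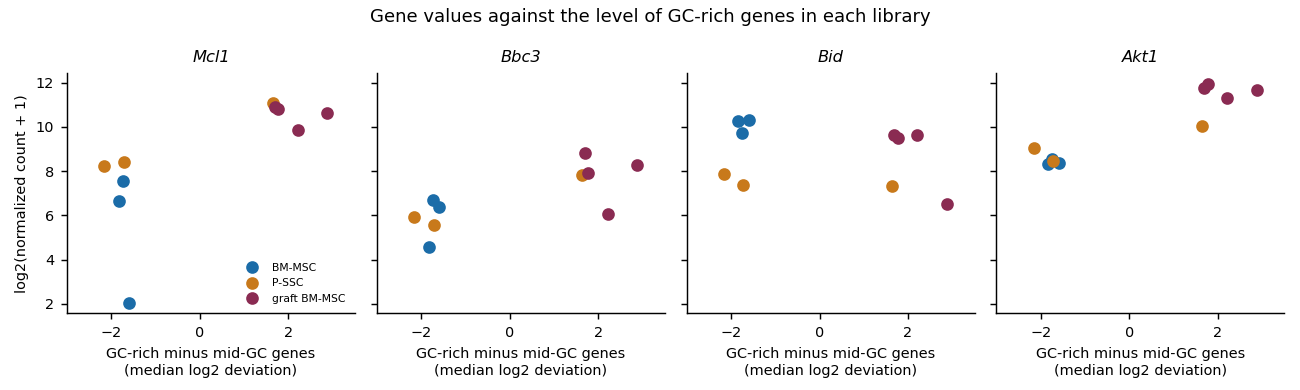
Each point is a library; the horizontal axis is the level of GC-rich genes less that of genes of middling GC (median log2 deviation) and the vertical axis is log2(normalized count + 1), for Mcl1, Bbc3, Bid and Akt1. Mcl1 was at 919 to 2172 in the 5 libraries on the right and at 3.16 to 339.7 in the 5 on the left, while Bid in P-SSC 4 (161) stood with the other P-SSC libraries (167 and 232). Bbc3 is itself among the GC-rich genes of the horizontal axis.

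Bcl2l1, whose main product BCL-XL guards the mitochondrion in many tissues, was more even than Bcl2 and Mcl1 within BM-MSC and P-SSC, though not than Mcl1 within the graft (SD of the log2 value 0.96 against 0.49). Its values were 516, 642 and 899 in BM-MSC, 616, 899 and 458 in P-SSC, and 739, 363, 506 and 155 in the 4 graft libraries. All 3 groups overlapped, with graft BM-MSC 4 the lowest of the 10. The log2 difference of graft BM-MSC was -0.73 from P-SSC and -0.81 from BM-MSC (SE 0.54 for both), neither past the threshold. Both turned positive (0.23 and 0.20) after the GC correction, which took the median over all genes to 0.29 and 0.25. P-SSC and BM-MSC differed by -0.08 (interval -1.35 to 1.20).

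Bcl2, the founding pro-survival gene, was low at steady state and erratic in the graft. It was at 84.6, 198 and 70.0 in BM-MSC and 36.4, 3.82 and 78.5 in P-SSC. In graft BM-MSC 1 to 4 it was at 121, 0.843, 850 and 492, from a single read in library 2 to the highest value of the series in library 3. The SD of its log2 value in the graft was 4.00, larger than that of 87.9% of the genes tested. No comparison passed the threshold, with log2 differences of 2.02 for graft BM-MSC against P-SSC (SE 1.97, adjusted p = 0.508) and -2.13 for P-SSC against BM-MSC (SE 2.11, adjusted p = 0.797). Without graft BM-MSC 2 the first of these was 3.94 (adjusted p = 0.0495). Against BM-MSC the graft differed by -0.11 (SE 1.97), a value that became 1.80 without graft BM-MSC 2, although the mean of the 4 graft libraries (366) was 3.11-fold that of BM-MSC (118).

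Bax encodes the effector that moves from the cytosol to the mitochondrion when the cell is committed to die. Its values were 1046, 1481 and 1309 in BM-MSC, 1249.6, 1688 and 1006 in P-SSC, and 953, 491, 967 and 748 in the graft. The 4 graft libraries were the lowest of the 10, although the gap between the highest graft library (967) and P-SSC 4 (1006) was small. Values of the groups did not overlap for 26.6% of all genes in graft BM-MSC against P-SSC and for 25.0% in graft BM-MSC against BM-MSC. The log2 difference was -0.75 from P-SSC (SE 0.33, adjusted p = 0.146) and -0.73 from BM-MSC (SE 0.33, adjusted p = 0.202). The median difference over all genes tested was -0.47 and -0.53, against which these values are to be read. The GC correction took the difference of Bax from P-SSC to 0.07 and the median over all genes to 0.29.

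Bak1, the effector that sits in the mitochondrial membrane at all times, was barely detected. It was at 19.8, 0 and 27.6 in BM-MSC, at 8.31, 26.8 and 6.79 in P-SSC, and at 31.1, 0, 4.03 and 1.73 in the graft. Those values rest on 0 to 55 reads a library, and the 2 zeros allow a value of up to 3.16 in BM-MSC 2+4 and 2.53 in graft BM-MSC 2 (3 reads). A difference between groups was not detectable at this depth, with intervals of the log2 difference that reach from -4.90 to 1.97 for graft BM-MSC against P-SSC.

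Bid is the BH3-only gene that links death receptors to mitochondria, and it separated the steady-state groups. It was at 1230.3, 1255 and 854 in BM-MSC and at 167, 232 and 161 in P-SSC. The graft libraries were at 799, 804, 91.6 and 728: libraries 1, 2 and 4 lay just under BM-MSC and above P-SSC, and library 3 was the lowest of the 10. The mean was 5.96-fold higher in BM-MSC (1113) than in P-SSC (187), with a log2 difference of P-SSC from BM-MSC of -2.57 (SE 0.77, interval -4.28 to -0.86) that missed the threshold after adjustment over all genes (adjusted p = 0.0689). Groups did not overlap for 30.9% of all genes in this comparison. The difference was called by DESeq2 (-2.56, adjusted p = 0.00393), in a fit of only these groups (adjusted p = 0.00253) and with only the libraries low in GC-rich genes (-2.47, adjusted p = 0.00751). The fit of the low libraries was chosen after seeing the data. edgeR did not call the difference (adjusted p = 0.0636), nor did limma without BM-MSC 1 or 2+4 (0.199 and 0.206) or with the GC property as a covariate (0.169). Over the 20 alternatives tried the adjusted p ran from 0.00253 to 0.206, with 3 past the threshold. Graft BM-MSC differed by 1.30 from P-SSC (SE 0.72, adjusted p = 0.241) and by -1.27 from BM-MSC (SE 0.72, adjusted p = 0.299), and without graft BM-MSC 3 the difference from P-SSC was 2.07 (adjusted p = 0.00310). Neutrophil and red cell markers were lowest in P-SSC, where Ptprc was at 0 in every library (as it was in graft BM-MSC 1 and 2), while graft BM-MSC 3 had the lowest Bid of all with the highest neutrophil sum of the series (98465). The part of blood cells in the Bid values was not tested.

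Bad encodes the BH3-only protein that growth factor signalling keeps inactive. Its values were 1621, 2249 and 2049 in BM-MSC, 2139.7, 2996 and 1536 in P-SSC, and 1201, 1200, 1475 and 955 in the graft. The graft libraries were below all others, and their log2 SD of 0.26 was smaller than that of most genes (12.7% were more even). Of all genes, 26.6% did not overlap between graft BM-MSC and P-SSC and 25.0% between graft BM-MSC and BM-MSC. The median log2 difference of the graft over all genes was -0.47 from P-SSC and -0.53 from BM-MSC. For Bad the log2 difference was -0.84 from P-SSC (SE 0.29, adjusted p = 0.0679) and -0.71 from BM-MSC (SE 0.29, adjusted p = 0.156). DESeq2 called the first (-0.91, adjusted p = 0.0313), as did limma without P-SSC 4 (-1.08, adjusted p = 0.0174). The GC correction took the difference of Bad from P-SSC to 0.05 and the median over all genes to 0.29. The difference from BM-MSC was 0.01 with the GC property as a covariate. P-SSC and BM-MSC differed by 0.13 (interval -0.55 to 0.82).

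Bbc3, the p53 target that encodes PUMA, has the most GC-rich exons of the members (67.1%). Bbc3 is itself among the 42 genes over 65% GC that define the GC property. It was at 23.0, 81.2 and 102 in BM-MSC and at 45.7, 59.9 and 222 in P-SSC. The graft libraries were at 66.1, 453, 310.2 and 237, so that 3 of them exceeded every steady-state library and library 1 did not. The log2 difference from BM-MSC was 1.89 (SE 0.98, adjusted p = 0.254) and from P-SSC 1.34 (SE 0.98, adjusted p = 0.375). Neither kept its direction: with the GC property as a covariate they were -0.17 and -0.03, and the GC correction took the first to -0.44. P-SSC 4 held more Bbc3 than the other P-SSC libraries, as it did for Mcl1.

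Bcl2l11, which encodes BIM, varied as much as Bcl2. It was at 74.1, 25.3 and 223 in BM-MSC, at 45.7, 1.27 and 62.0 in P-SSC, and at 368, 899, 1.01 and 344 in the graft. A single read was found in P-SSC 2+5 and in graft BM-MSC 3, while graft BM-MSC 2 had the highest value of all. Graft library 3, with the least Bcl2l11, had the most Bcl2, and graft library 2, with a single read of Bcl2, had the most Bcl2l11. The log2 difference was 2.71 for graft BM-MSC against P-SSC (SE 2.11, adjusted p = 0.408), 0.69 against BM-MSC (SE 2.11, adjusted p = 0.869) and -2.02 for P-SSC against BM-MSC (SE 2.25, adjusted p = 0.847). With SDs of 1.54, 2.65 and 4.01 in BM-MSC, P-SSC and the graft, changes of several fold would not have been seen.

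Bnip3, the mitophagy receptor, did not separate the groups. Its values were 505, 176 and 459 in BM-MSC, 548, 411 and 359 in P-SSC and 370, 577, 939 and 309 in the graft. The log2 differences were 0.21 for graft BM-MSC against P-SSC (interval -0.98 to 1.39), 0.53 against BM-MSC (-0.65 to 1.72) and 0.33 for P-SSC against BM-MSC (-0.94 to 1.59).

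**Figure D3:**
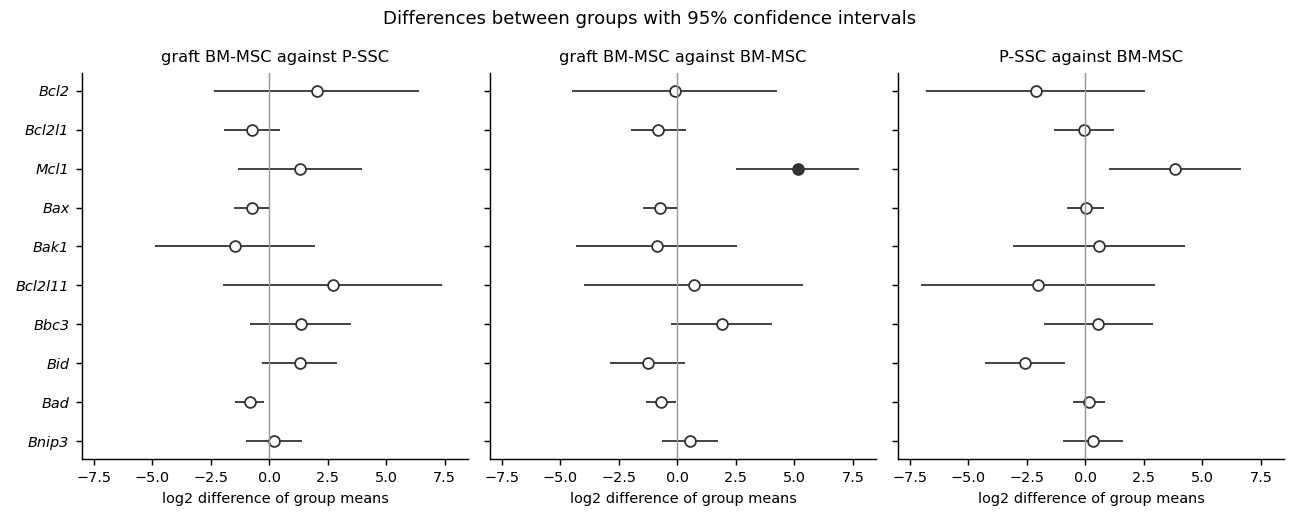
Points are log2 differences of group means for each gene in the 3 comparisons, horizontal lines are 95% confidence intervals from limma, and a filled point has an adjusted p under 0.05. Mcl1 in graft BM-MSC against BM-MSC (5.14, SE 1.19) is the filled point, and the intervals of Bcl2, Bcl2l11 and Bak1 are the widest.

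Set against each other, the pro-survival and pro-death genes did not move as blocs. The median log2 difference of the 3 pro-survival genes was 1.31, -0.11 and -0.08 in graft BM-MSC against P-SSC, graft BM-MSC against BM-MSC and P-SSC against BM-MSC, and that of the 6 pro-death genes (Bax, Bak1, Bcl2l11, Bbc3, Bid and Bad) was 0.28, -0.72 and 0.08. Over all genes these medians were -0.47, -0.53 and 0.00. A balance was also taken in each library, the mean log2 value of the pro-survival genes less that of the pro-death genes. It was -0.34, -0.83 and -0.57 in BM-MSC (mean -0.58 ± 0.25, SD, n = 3). In P-SSC it was 0.46, -0.24 and 1.31 (mean 0.51 ± 0.77, n = 3), and in the graft 0.54, -1.14, 3.35 and 1.23 (mean 1.00 ± 1.86, n = 4). The balance was not taken per kilobase of exon, so its side of 0 has no meaning by itself and only libraries can be compared. All BM-MSC libraries were below all P-SSC libraries and below graft BM-MSC 1, 3 and 4, while graft BM-MSC 2 was below every BM-MSC library. The highest balance, in graft BM-MSC 3, is made up in part of the highest Bcl2 and the lowest Bid and Bcl2l11 of the series, which are terms of the balance. The Bcl2l11 value there was a single read. The balance weights a gene of a few reads like an abundant gene, and it is a description with no test.

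**Figure D4:**
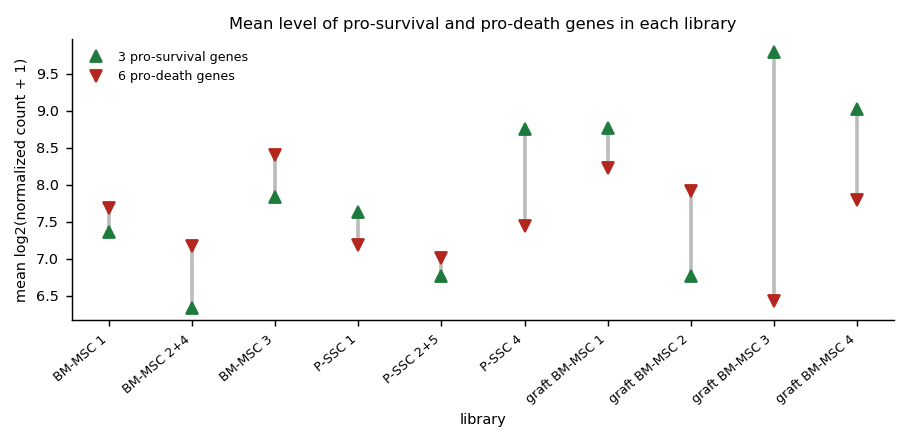
For each library, the upward triangle is the mean log2(normalized count + 1) of Bcl2, Bcl2l1 and Mcl1 and the downward triangle that of the 6 pro-death genes; the line joins them. The pro-survival mean less the pro-death mean was -0.83 to -0.34 in the 3 BM-MSC libraries and highest in graft BM-MSC 3 (3.35). Values were not taken per kilobase of exon, so which triangle lies on top has no meaning by itself.

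Genes that act around the family were taken from lists for 7 steps of the pathway, 58 genes in all, of which 54 were in the table and 51 were tested. In graft BM-MSC against P-SSC 2 of them rose and 3 fell, in graft BM-MSC against BM-MSC 1 rose and 2 fell, and in P-SSC against BM-MSC 0 rose and 2 fell. That is 9.80%, 5.88% and 3.92% of the genes tested, under the shares of all genes called. Of all genes, 6.08% rose and 12.0% fell in the first comparison, 2.61% and 5.06% in the second, and 4.57% and 4.58% in the third. This split depended on the scaling: 830 rose and 1634 fell in graft BM-MSC against P-SSC, but 1247 and 1241 after quantile normalization and 1611 and 985 after the GC correction, and against BM-MSC 356 and 690 became 588 and 435, and 901 and 358.

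The list for the control of MCL-1 and BAD held a rise in the graft against both other groups. Akt1, the kinase that phosphorylates BAD, was at 319.6, 332 and 369 in BM-MSC, 349, 531 and 1061 in P-SSC, and 2562, 3501, 3244 and 3904 in the graft. The 4 graft libraries stood above all others, and P-SSC 4 was the highest of the steady-state libraries. Akt1 rose by a log2 difference of 3.26 against BM-MSC (SE 0.38, adjusted p = 0.00182, 9.71-fold) and of 2.49 against P-SSC (SE 0.38, adjusted p = 0.00111). With the GC property as a covariate these were 1.96 (adjusted p = 0.155) and 1.62 (adjusted p = 0.0291), and after the GC correction 3.77 and 3.24, both called. Ddit3, which encodes the stress factor CHOP, fell in the graft, from 653 to 736 in BM-MSC and 548 to 653 in P-SSC to 189 to 326. Its log2 differences were -1.47 (adjusted p = 0.0337) and -1.25 (adjusted p = 0.0345). After the GC correction they were -0.63 and -0.33, no longer called, beside medians over all genes of 0.25 and 0.29. The first call was also lost without any single BM-MSC library (adjusted p = 0.106 to 0.115), and the second without P-SSC 1 or 2+5 (0.121 and 0.0697). Among the remaining genes of this list, which include the MCL-1 ligase Huwe1 and the deubiquitinase Usp9x, none was called, and Ywhaz, the 14-3-3 gene that binds BAD and the most abundant here, was even at 4666 to 7923.

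On the death receptor route to BID, Tnfrsf1a, the main receptor for tumour necrosis factor, was lower in P-SSC than in both marrow groups. It was at 9409.7 to 11947 in BM-MSC, 3575 to 5167 in P-SSC and 5877 to 11222 in the graft. It fell by 1.27 on the log2 scale in P-SSC against BM-MSC (adjusted p = 0.0124, or 0.0596 and 0.0529 without BM-MSC 2+4 or 3, 0.0925 after the GC correction and 0.0656 after median centring). It was higher by 0.86 in graft BM-MSC than in P-SSC (adjusted p = 0.0399), a call that was lost without any of the P-SSC libraries (adjusted p = 0.0604 to 0.102) or without graft BM-MSC 2 or 3 (0.0812 and 0.0816), and after median centring (0.183). Tnfrsf10b, a receptor for the death ligand TRAIL, was at 12.6 to 47.1 in P-SSC, 0 to 19.8 in BM-MSC and 0 in all graft libraries. Its P-SSC mean (30.3) was 12.3-fold a graft floor of 3 reads a library (2.46), a ratio that leaves out the spread within P-SSC. The mean over all libraries (12.9) was just above the filter of 10 and came mainly from P-SSC. Tnfrsf10b was called in graft BM-MSC against P-SSC (adjusted p = 0.0180). It was not called without P-SSC 1 or 2+5 (0.0565 and 0.0557), after the GC correction (0.0521), after quantile normalization (0.179) or with edgeR (0.0634). Casp8, whose product cuts BID, was at 727 to 1123 in BM-MSC, 603 to 808 in P-SSC and 544 to 2126 in the graft, and was not called.

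Among caspases and the apoptosome, Casp6 fell by 1.78 on the log2 scale in P-SSC against BM-MSC (adjusted p = 0.0345), from 712 to 1446 down to 231 to 318, and the call was lost when any single library of either group was left out (adjusted p = 0.0580 to 0.161) or after the GC correction (0.114). Casp2 was at 317 to 475 in P-SSC, 352 in graft BM-MSC 1, 0 in graft BM-MSC 2 and 3 and 3.45 in graft BM-MSC 4. Its log2 difference of -6.00 (adjusted p = 0.0432) thus rests on 3 graft libraries at or near 0, and it was not called without any 1 of the P-SSC libraries (adjusted p = 0.0944 to 0.144) or of graft BM-MSC 2, 3 and 4 (0.0763 to 0.0856). The size of the Casp2 difference depended on the method: it was -7.74 with a pseudocount of 0.1 (adjusted p = 0.0633) and -4.62 with 5, and on the recovered reads -2.11 with edgeR (adjusted p = 0.532) and -2.23 with DESeq2, which gave no adjusted p. After the GC correction it was -5.16 (adjusted p = 0.0512). Cycs, which encodes cytochrome c, was at 932 to 1710.2 in BM-MSC, 874 to 1374 in P-SSC and 665 to 1109 in the graft, with no call.

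In the wider BCL2 family 11 of 15 genes were in the table and 8 were tested. Bcl2l13, a mitophagy receptor of the family, was at 894 to 1103 in BM-MSC, 719 to 787 in P-SSC and 281 to 583 in the graft, and its log2 value fell by 1.39 against BM-MSC in the graft (adjusted p = 0.0382). That call was lost after the GC correction (-0.52, beside a median over all genes of 0.25). It was also lost without any single BM-MSC library (adjusted p = 0.0877 to 0.141) or graft BM-MSC 1 or 3 (0.0624 and 0.0570). Bnip3l, the close relative of Bnip3 that clears mitochondria from maturing red cells, was the most abundant gene of this list at 1819.8 to 4290.3, with no call. Bnip2 was at 979 to 1363 at steady state and 440.2 to 815 in the graft, with log2 differences of -0.67 and -0.81 that missed the threshold (adjusted p = 0.163 and 0.139). The paralogs Bcl2a1a and Bcl2a1d share sequence, so reads between them are uncertain, and both were too low to test.

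The inhibitors of apoptosis, the mitochondrial channels and released factors, and the mitophagy partners of BNIP3 gave 0 calls in limma over the 3 comparisons among the genes reported. Of their 20 genes tested, 6 in the comparison of graft BM-MSC with P-SSC, 4 in that with BM-MSC and 3 in that of P-SSC with BM-MSC had an unadjusted limma p under 0.05. None of these counts was above the share of all genes under this limit, which was 32.8%, 25.5% and 18.7%. In the same order, edgeR's quasi-likelihood test on the recovered reads called 0, 0 and 0 of the 20 genes, and DESeq2 called 3, 1 and 2. Of all 13644 genes, edgeR called 1531, 316 and 619, and DESeq2 called 1200 higher and 1708 lower, 918 and 1029, and 727 and 788. The autophagy genes Map1lc3b (8873 to 18779) and Sqstm1 (10043 to 18326) were abundant in every library, as were the channels Vdac3 (2349 to 4294) and Vdac2 (1744 to 3676), and none was called. Birc3 was at 292 to 994 with no call, and Birc2 ranged from 0 to 1101 within the graft. Endog and Pink1 shared the pattern of Mcl1 across the libraries: Endog was at 243 to 412 in the graft and 389 in P-SSC 4 against 6.37 to 41.1 in the other 5 libraries, and Pink1 at 1039.8 to 2307 and 6359 against 199 to 382. They were singled out after their values were seen, and neither was called in graft BM-MSC against BM-MSC (adjusted p = 0.109 and 0.0754).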

How the data were processed

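RNA of sorted cells was sequenced in 10 libraries. The authors deposited 1 table of normalized counts, treated as a signal: reads of a gene scaled by library depth with DESeq2's size factors. The submitters' processing notes name FastQC 0.11.5, cutadapt 1.15, STAR 2.5, featureCounts of Subread 1.4.6, DESeq2 1.26.0 and the build GRCm39, while the methods name GRCm38 and a later STAR release. The strand setting, annotation release and filter are not given in the sources used here. Dividing by the value of 1 read gave whole reads (within 0.01) for 100% of the values. No gene of the table has fewer than 22 reads over all libraries, so rarer genes were not analysed here.

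Values were analysed as log2(value + 1), which understates the change of low genes. A filter on the mean of at least 10 kept 13644 genes and removed 1434. limma 3.58.1 in R 4.3.3 was fitted to all 10 libraries with 1 mean a group and a trend in the variance (7 residual degrees of freedom), and tested two-sided with Benjamini-Hochberg adjustment over all genes at 0.05. edgeR 4.0.16 and DESeq2 1.42.0 ran on recovered reads as alternatives, and the scripts were tested on simulated data. Other alternatives were pseudocounts of 0.1 and 5, no filter, a filter at a mean of 100, quantile normalization, median centring, fits of only the groups compared, a replicate block, a GC correction (loess, span 0.3), the GC property as covariate, leaving out each library, and, chosen after seeing the data, only the libraries low in GC-rich genes.

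All members are named; of each pathway list, the genes called and, where fewer than 2 were, the 2 with the highest mean. The members and lists were chosen with earlier results of these data known. Genes were matched to GENCODE M21 on GRCm38 by Ensembl ID (15052 matched, 26 not). Per the study's methods, replicates came from different mice, with the RNA of a pair of mice pooled in some. Limits of 3 reads cover counting error only. Bcl2a1b, Bcl2l10, Hrk and Bcl2l14 were not analysed here, and a pair of genes was taken out of the lists after the analysis and is not reported here.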

Additional observations from a re-analysis of the deposited data

Results flagged for a closer look

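In a pair of members, 1 graft library lay far from the other 3. Bak1 was at 31.1 in graft BM-MSC 1 against 0 to 4.03 in the others (0 to 4 reads a library), a gap of 0.870 of the whole range. Bid was at 91.6 in graft BM-MSC 3 against 728 to 804 in the others, a gap of 0.894 of the range. Both gaps are above Dixon's 95% critical value for 4 libraries. They were taken on normalized counts, and whether they hold on log2 values was not tested. Chance flags about 1 in 20 groups, and the graft groups of 10 genes and of the balance were looked at.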

How the results depend on the processing

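Of 597 member differences recomputed under alternatives, 513 kept direction and side of the threshold. A change of sign was seen in 65, none of them called in the original fit, and the cause was not tested. Only Mcl1 in graft BM-MSC against BM-MSC was called in the original fit, so the other differences had no call to lose. That call held in 11 of 20 alternatives. Counts of members called in graft BM-MSC against P-SSC, against BM-MSC and in P-SSC against BM-MSC were 0, 1 and 0. They moved to 1 in the first (Bcl2) with quantile normalization, to 0 in the second and 1 in the third (Bid) with only the groups compared, to 0 in the second with the GC property as covariate or edgeR, to 2 in the first (Bid and Bad) and 2 in the third (Bid and Mcl1) with DESeq2, and to 1 in the third with only the libraries low in GC-rich genes. Without single libraries they ranged from 0 to 1 in the first, 0 to 1 in the second and stayed 0 in the third. All genes called (2464, 1046 and 1248) moved to 1081 and 40 in the first and second with the covariate, 1531, 316 and 619 with edgeR, 1947 in the second with DESeq2 and 2040 in the third in the low libraries. Without single libraries they ranged from 1583 to 3005 in the first and from 476 to 1043 in the second (477 to 1043 with BM-MSC 2+4 kept). The BM-MSC balance was -0.92 after the GC correction. The median log2 difference over all genes was -0.47, -0.53 and 0.00 in the original fit and 0.29, 0.25 and 0.01 after the GC correction.

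In graft BM-MSC against P-SSC, these log2 differences changed sign: Bak1 1.27 (quantile), Bcl2l1 0.23, Bax 0.07 and Bad 0.05 (GC correction), Mcl1 -0.53 and Bbc3 -0.03 (covariate), and Bnip3, -0.10 to 0.44 without single libraries. Against BM-MSC they were Bcl2 0.26 (pseudocount 5), 1.31 (quantile), 0.59 (GC correction) and 1.63 (edgeR and DESeq2), Bak1 1.80 (quantile) and 0.17 (covariate), Bcl2l1 0.20 and Bbc3 -0.44 (GC correction), and Bcl2l11 -1.92, Bbc3 -0.17 and Bad 0.01 (covariate). Without single libraries Bcl2 ran from -1.15 to 1.80, Bcl2l11 from -0.26 to 2.67 and Bak1 from -2.42 to 0.00 (-1.81 to 0.00 with BM-MSC 2+4 kept). Without BM-MSC 2+4 Bcl2 was 0.34 and Bcl2l11 -0.08. In P-SSC against BM-MSC they were Bax -0.13 (quantile), -0.07 (median centring), -0.20 (GC correction) and -0.06 (edgeR), Bad -0.07 (quantile and GC correction), Bbc3 -0.54 (GC correction), Bcl2l1 0.16 and Bbc3 -0.14 (covariate and low libraries) and Bak1 -0.27 (edgeR) and -0.16 (DESeq2). Without single libraries Bax ran from -0.17 to 0.20 (from -0.12 with P-SSC 2+5 kept), Bbc3 from -0.14 to 0.99, Bad from -0.11 to 0.37, Bak1 from -0.95 to 1.47, Bnip3 from -0.15 to 0.60 and Bcl2l1 from -0.33 to 0.16.

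Correlations of same-numbered libraries' deviations were -0.019 to 0.030, and 1 of 7 libraries was closest to its own number. Only BM-MSC 1 with P-SSC 1 (-0.019) is a pair without a graft library, and the pooled libraries had no partner. Whether marrow and periosteum libraries came from the same mice cannot be told from this. With the replicate block the genes called were 269, 3 and 54 and the members 0 in the second comparison; Bnip3 was -0.20 in the first, Bcl2 2.07 and Bcl2l11 -2.02 in the second, and Bcl2l1 0.41 and Bak1 -1.11 in the third. With the block and the GC correction the genes were 379, 2 and 79 and the members 0 in the second. In the first comparison Bax was then 0.26, Bak1 0.71 and Bbc3 -0.49. In the second Bcl2 was 2.72, Bcl2l1 0.52, Bax 0.21, Bcl2l11 -1.19, Bbc3 -0.60 and Bad 0.16. In the third Bcl2l1 was 0.52, Bax -0.05, Bak1 -1.21 and Bbc3 -0.10. Akt1 lost both calls under the block (adjusted p = 0.0582 and 0.250).

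Genes of few reads (Bak1, and Bcl2 or Bcl2l11 in single libraries) limit what can be seen at this depth.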
